A study of Mus musculus with 24 samples.

Results

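Cells of the B16F10 line, a pigmented mouse melanoma line, were compared, without TNFα, between a line that had lost both Rnf31 and Atg5 and a control knockout line. The samples are the 3 libraries of double knockout cells and the 3 of control knockout cells that received vehicle, 6 of the 24 libraries of the series, chosen by genotype and treatment and not by any measured value. The labels call the control line ctrl-KO and give its genotype as WT, and call the other dKO for Rnf31 and Atg5. The series also holds cells lacking Rnf31 alone or Atg5 alone, and all 4 lines were treated with TNFα at 2 ng/ml for 24 h as well. Libraries of the single knockout lines with vehicle, and of the control and double knockout lines with TNFα, are used here for further comparisons and for the estimate of the spread. All groups are B16F10 cells grown in culture, and the control line is labelled as a knockout control and not as the parental line. Whether a line is 1 clone or a pool, and where each gene was edited, is not given in the sources used here. Each fold change therefore belongs to these lines. No group is an animal or a tumour, although the labels give skin as the tissue.

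Rnf31, also called HOIP, is the ligase that gives the LUBAC complex its activity. LUBAC attaches head-to-tail ubiquitin chains at the TNF receptor and at other immune receptors, and these chains carry the signal to NF-kB and restrain cell death. Atg5 is part of the enzyme complex that joins Atg8-family proteins to lipid, a step that autophagosomes need to form and to take in their cargo. Type I interferon activates a complex that holds Stat2 and Irf9 and binds the interferon-stimulated response element in the promoters of antiviral genes. Melanoma cells shift between a pigmented state driven by Mitf and states with less pigment and more matrix and inflammatory transcripts.

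The 6 libraries held 26568930 to 33385502 counts on named genes, and 13527 of the 15738 named genes had enough counts to be tested. Control replicate 2 stood apart from the other control libraries. The chi-square statistic of its counts, divided by its degrees of freedom, was 30.04 and 19 against them and at most 8.57 in every other pair of replicates of the series, and ribosomal protein genes took 9.56% of its counts against 8.01% and 8.04%. Labels call the libraries biological replicates, but separate cultures are not mentioned, and p-values therefore describe only the spread between these libraries. A gene was called at an edgeR quasi-likelihood adjusted p (Benjamini-Hochberg over all tested genes) under 0.05. Levels are in CPM, a gene's count relative to the TMM-scaled total of its library, given for replicates 1, 2 and 3 in that order, and fold changes are log2 values ± SE of double knockout against control. Atg5 stood at 50.5, 61.9 and 51.7 CPM in control and 24.1, 24.97 and 26.9 CPM in double knockout libraries, a change of -1.11 ± 0.08. Rnf31 stood at 10.8, 9.999 and 8.61 CPM in control and 6.53, 6.46 and 6.87 CPM in double knockout libraries, a change of -0.57 ± 0.10. Both groups were apart for both genes, but a knockout edit need not remove the transcript, so these values check the labels only in part. Gene positions below are on GRCm38.

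Double knockout cells differed from control cells in 7093 of the 13527 genes tested (52.4%). Higher calls numbered 3417 (25.3%) and lower calls 3676 (27.2%), and the median log2 fold change of all tested genes was -0.01. More than 2-fold changes were 657 higher and 302 lower. Without control replicate 2 the called genes were 3060 higher and 3286 lower. For 7250 genes (53.6%) the 3 libraries of one group all lay beyond the 3 of the other. Large increases included the interferon-induced genes Ifi203, Mndal and Sp100, and large falls included Btn2a2, Nostrin and Sytl4. The count of called members of each gene list below is to be read against 25.3% higher and 27.2% lower.

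**Figure D1:**
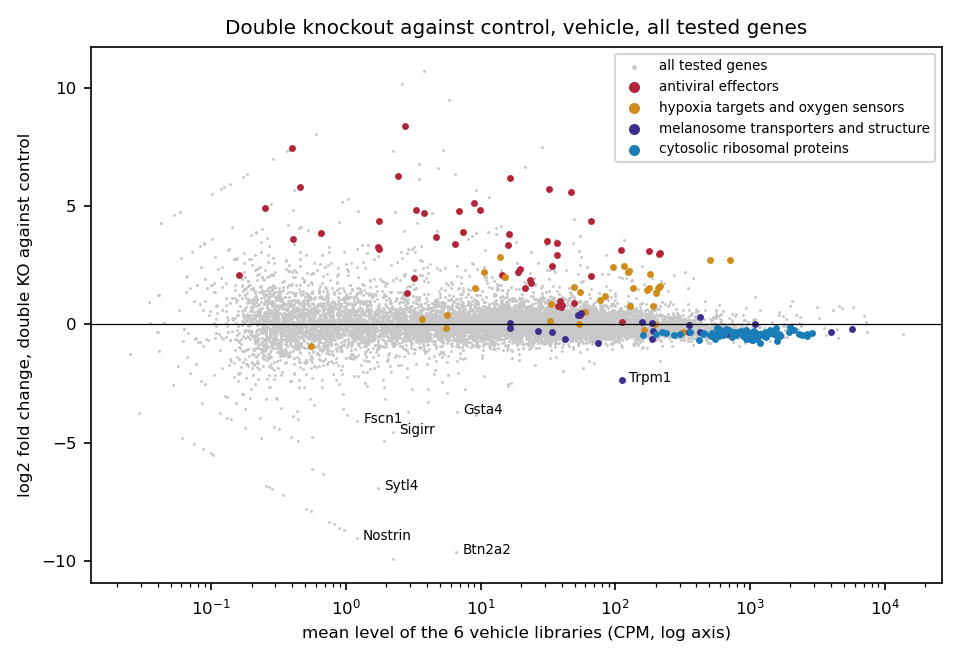
Each point is 1 of the 13527 tested genes, placed by its mean CPM in the 6 vehicle libraries (log axis) and its log2 fold change in double knockout against control cells, with 4 gene lists in colour. Antiviral effectors lie between 0.09 and 8.42, ribosomal protein genes between -0.80 and -0.12, and fitted values of genes with few counts in a group are not bounds.

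**Figure D2:**
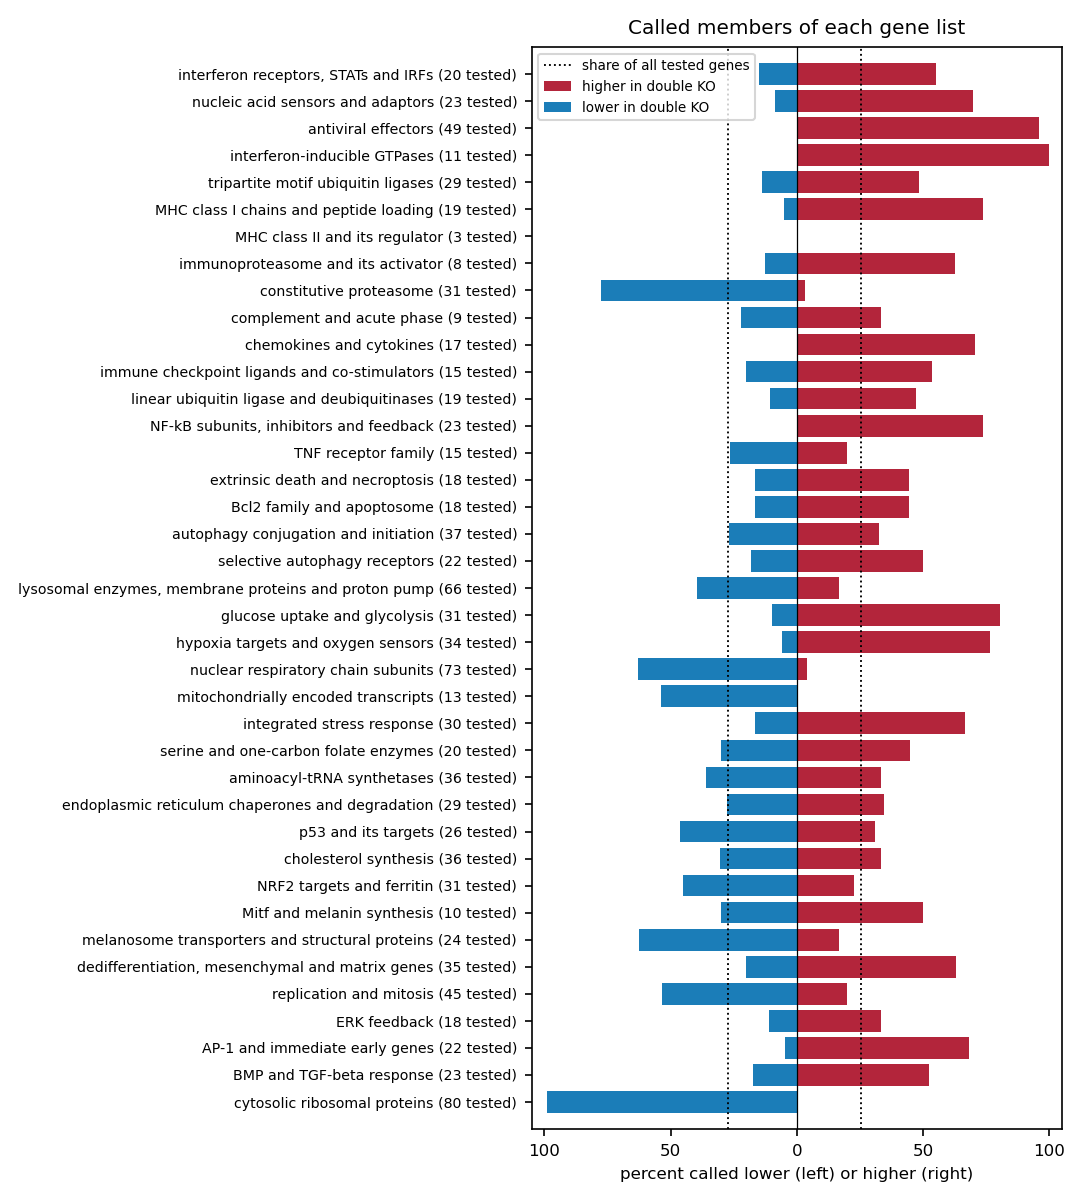
Bars give the percent of tested members of each gene list that were called higher (right) or lower (left) in double knockout than in control cells, with the number of tested members beside each name and dotted lines at 25.3% and 27.2%, the shares over all genes. Interferon-inducible GTPases reach 11 of 11 members to the right, and ribosomal proteins reach 79 of 80 to the left.

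Among genes that code for receptors, kinases and transcription factors of interferon signalling, several interferon-induced factors were far higher in double knockout cells, while the receptor chain Ifnar1 was slightly lower and Ifnar2 was not called. Of 20 members tested, 11 rose, 3 fell and 6 were not called, with a median of 0.27. Irf7, a transcription factor that drives interferon genes (chromosome 7, 141262706 to 141266481), stood at 0.236, 0.54 and 0.23 CPM in control and 20.9, 15.2 and 18.1 CPM in double knockout libraries (5.70 ± 0.25, adjusted p = 7.41e-17). Irf9, the DNA-binding part of the interferon-activated complex, went from 5.22, 5.68 and 5.63 CPM in control to 58.9, 51.1 and 58.1 CPM (3.34 ± 0.08), and its partner Stat2 rose by 1.75 ± 0.14. None of these 3 genes had overlapping groups. Usp18, a protease that removes Isg15 from proteins and dampens the interferon receptor, rose from 0.708, 0.381 and 0.115 CPM in control to 45.6, 37.3 and 44.1 CPM (6.67 ± 0.24). The receptor chain Ifnar1 stood at 56.4, 57.8 and 59.2 CPM in control and 51.2, 47.1 and 51.01 CPM in double knockout libraries (-0.22 ± 0.05, adjusted p = 6.25e-04), and Ifnar2 was at 29.3, 28.3 and 27.2 CPM in control and 28.6, 28.7 and 28.9 CPM in double knockout libraries with overlapping groups (0.02 ± 0.06, adjusted p = 0.788). Il10rb, a chain shared by the interleukin-10 and lambda interferon receptors, was lower at 47.4, 47.2 and 49.1 CPM against 73.1, 78.6 and 71.7 CPM in control (-0.64 ± 0.05). Socs3, a feedback inhibitor of receptor-bound kinases, was also lower (-0.62 ± 0.14).

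Most nucleic acid sensors were higher as well. Of 23 members tested, 16 rose, 2 fell and 5 were not called, and the median was 1.01. Large increases belonged to the Ifi200 family, DNA-binding proteins encoded side by side on chromosome 1. Ifi203 (chromosome 1, 173920407 to 173942672) was without a single count in control cells and stood at 7.57, 6.18 and 9.2 CPM in the double knockout, which makes it at least 222-fold higher when the control group is set to 3 counts in all. Mndal had 0 control counts and 6.34, 4.18 and 5.12 CPM, at least 151-fold higher. Ifi211 and Ifi204 each had 5 counts over the control group, and their ratios were 181 (95% counting interval 77.4 to 560) and 119.5 (50.9 to 370). Members of this family are similar in sequence, so their separate values depend on how shared reads were divided. Among cytosolic RNA sensors, Dhx58 (LGP2) stood at 1.82, 1.49 and 1.88 CPM in control and 27.2, 23.2 and 23.1 CPM in double knockout libraries (3.83 ± 0.13) and Ifih1 (MDA5) at 7.34, 6.7 and 8.38 CPM in control and 47.96, 41.7 and 47.9 CPM in double knockout libraries (2.62 ± 0.09). The 2 lower members were Rnaseh2a (-0.35 ± 0.06) and Rnaseh2b (-0.56 ± 0.06), subunits of an enzyme that removes RNA from DNA.

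Antiviral effectors were the list with the largest number of increases, though not with the largest share or median. Of 49 members tested, 47 rose, none fell and 2 were not called, with a median of 3.28, and 41 rose more than 2-fold. Sp100, a nuclear body protein, had 1 count over the control group and 458 over the double knockout group, a ratio of 477 (95% counting interval 85.2 to 18880, counting error only). Oas2, which makes the second messenger that activates an RNA-degrading enzyme, had 5 and 405 counts, a ratio of 84.4 (35.9 to 261). Isg15, a ubiquitin-like protein, stood at 5.22, 7.14 and 5.74 CPM in control and 135, 120.4 and 125 CPM in double knockout libraries (4.39 ± 0.11). Isg20, an exonuclease that degrades RNA, stood at 1.28, 1.36 and 0.651 CPM in control and 13.4, 10.98 and 10.99 CPM in double knockout libraries (3.39 ± 0.20). Every double knockout library lay above every control library for Isg15 and Isg20. Sp100 and Oas2 were named by the rule for the largest increases. That rule required groups that were apart, so the separation of Sp100 and Oas2 is no further result. Of 18 leukocyte markers, 1 was tested, and that gene, Lyz2, stood at 1.89, 2.06 and 1.49 CPM in control and 1.63, 1.002 and 1.5 CPM in double knockout libraries with overlapping groups. Cd79a, the only other leukocyte marker with a row, had 17 control and 6 double knockout counts.

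Promoters of these effectors are shown because so many of the list moved together. Windows from 250 bases before to 50 after a start site were taken from RefSeq on GRCm38.p6, and 38 of the 49 tested effectors had one. The motif searched was GAAANNGAAA, the core of the interferon-stimulated response element, on either strand. It was found in 1131 of the 32851 windows of the table (3.44%) and for 356 of the 10017 tested genes with a window (3.55%). Among antiviral effectors it was found for 17 of 38 genes (44.7%), and among interferon-inducible GTPases for 8 of 9 (88.9%). Nucleic acid sensors held it in 5 of 16 (31.2%), interferon signalling genes in 3 of 17 (17.6%) and glycolysis genes in 0 of 30. The 6 called effectors with the largest fold change and a match are shown as the 100 bases upstream of the start site, 5′ to 3′ on the gene's strand, with matches in capitals and overlapping matches joined. They lie at chr11:83020811-83020910 (minus strand) for Slfn8, chr5:120887614-120887713 (minus strand) for Oas1g, chr5:120907526-120907625 (minus strand) for Oas1a, chr15:77411081-77411180 (minus strand) for Apol9a, chr15:77728972-77729071 (plus strand) for Apol9b and chr8:61927987-61928086 (plus strand) for Ddx60.
Slfn8: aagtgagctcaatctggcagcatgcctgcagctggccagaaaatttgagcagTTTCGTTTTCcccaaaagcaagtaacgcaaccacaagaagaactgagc
Oas1g: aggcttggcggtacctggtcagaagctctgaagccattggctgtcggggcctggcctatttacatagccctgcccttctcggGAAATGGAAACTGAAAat
Oas1a: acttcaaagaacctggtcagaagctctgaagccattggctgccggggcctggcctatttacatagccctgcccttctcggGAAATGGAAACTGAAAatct
Apol9a: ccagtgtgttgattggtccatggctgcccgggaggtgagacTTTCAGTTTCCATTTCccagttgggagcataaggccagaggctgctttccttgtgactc
Apol9b: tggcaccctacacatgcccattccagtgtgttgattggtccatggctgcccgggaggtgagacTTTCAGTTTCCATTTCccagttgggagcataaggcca
Ddx60: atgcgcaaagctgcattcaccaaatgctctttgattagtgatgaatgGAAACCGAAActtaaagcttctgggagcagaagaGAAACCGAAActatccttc

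The capitals in Slfn8, Apol9a and Apol9b are the motif read on the opposite strand. In Oas1g, Oas1a, Apol9a and Apol9b, 2 matches overlap and share a GAAA block. Ddx60, a helicase of antiviral defence, has 2 separate matches, and its level was 0.202, 0.444 and 0.153 CPM in control and 7.49, 6.8 and 7.8 CPM in the double knockout (4.73 ± 0.28). Oas1g, a paralogue of Oas1a, stood at 0.539, 0.54 and 0.191 CPM in control and 33.2, 26.98 and 37.3 CPM in double knockout libraries (6.21 ± 0.23). Apol9a stood at 0.27, 0.349 and 0.919 CPM in control and 19.4, 16.2 and 16.8 CPM in double knockout libraries (5.13 ± 0.24) and Apol9b at 0.539, 0.413 and 0.459 CPM in control and 13.5, 12.99 and 13.6 CPM in double knockout libraries (4.82 ± 0.20). Each pair of paralogues has nearly the same sequence around the match, and reads may be shared between its members. Slfn8 had 0 counts over the control group and 67 over the double knockout group, at least 23.3-fold higher. A match is a description of the letters and does not show binding.

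Interferon-inducible GTPases, which attack the vacuoles of intracellular parasites, were higher in 11 of 11 members tested, with a median of 4.12. Igtp had 13 and 1071 counts over the groups, a ratio of 85.8 (95% counting interval 49.96 to 162). Irgm2 stood at 0.64, 0.603 and 0.306 CPM in control and 23.1, 20.5 and 23.98 CPM in double knockout libraries (5.41 ± 0.17). The guanylate-binding proteins Gbp7, Gbp3 and Gbp2 rose by 3.73 ± 0.16, 3.68 ± 0.13 and 2.62 ± 0.14, the last from 2.49, 2.35 and 2.41 CPM in control to 15.4, 13.4 and 15.7 CPM. Of 29 tripartite motif ubiquitin ligases tested, 14 rose, 4 fell and 11 were not called, with a median of 0.36. The large increases lay in 1 cluster on chromosome 7. Trim30a (chromosome 7, 104409025 to 104465193) had 27 and 4793 counts, a ratio of 185 (127 to 281), Trim12c a ratio of 104.8 (52.9 to 244) and Trim34a a ratio of 74.5 (37.5 to 173). The lower members were not of that cluster, and included Trim28, a corepressor of retroelements, at 488, 397 and 456 CPM in control and 371, 397 and 391 CPM in double knockout libraries (-0.21 ± 0.06). Control replicate 2 lay next to double knockout replicate 2, and the groups just failed to overlap, and a fit of the 2 groups alone did not call Trim28 (-0.20). Trim59 (-0.45 ± 0.06) and Trim27 (-0.37 ± 0.06) were lower too.

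Transcripts of MHC class I antigen presentation rose. Of 19 chains and loading factors tested, 14 rose, 1 fell and 4 were not called, and the median was 1.84. H2-D1, a classical heavy chain (chromosome 17, 35262730 to 35267499), stood at 58.2, 54.4 and 59.9 CPM in control and 209.9, 213 and 193 CPM in the double knockout (1.84 ± 0.07, adjusted p = 1.08e-18). H2-T23, a non-classical heavy chain read by natural killer cells, stood at 0.505, 0.762 and 0.421 CPM in control and 8.05, 10.02 and 8.55 CPM in double knockout libraries (3.95 ± 0.19). Nlrc5, the transactivator of class I genes, stood at 0.202, 0.159 and 0.421 CPM in control and 2.89, 2.45 and 2.61 CPM in double knockout libraries (3.36 ± 0.39), and the peptide transporter subunit Tap2 at 0.64, 0.73 and 0.574 CPM in control and 3.04, 4.01 and 4.04 CPM in double knockout libraries (2.50 ± 0.30). Groups were apart for each of these. The lower member was Calr, a chaperone of the endoplasmic reticulum (-0.23 ± 0.04, and -0.13 with a correction for transcript length). Of 3 class II genes tested, none was called in edgeR, 1 had an unadjusted p under 0.05 and 1 was called in DESeq2. Of those, the class II invariant chain Cd74 had 3 counts over the control group and 17 over the double knockout group. Of 8 genes of the immunoproteasome and its activator, 5 rose, 1 fell and 2 were not called. The activator subunits Psme2 (0.47 ± 0.08) and Psme1 (0.29 ± 0.06) rose by little, and Psme2 went from 38.6, 46.5 and 40 CPM in control to 57.8, 62.1 and 52.98 CPM. The interferon-induced catalytic subunits had few reads, 0 and 17 counts for Psmb8 and 14 and 56 counts for Psmb9.

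Cytokine transcripts were higher in 12 of 17 members tested, with none lower and a median of 1.16. The chemokine Cxcl1 had 4 counts over the control group and 169 over the double knockout group, a ratio of 44 (counting interval 16.9 to 163). The chemokines Cxcl10 and Ccl5 rose by 3.55 and 3.47. Lif, an interleukin-6 family cytokine, stood at 0.64, 0.667 and 0.651 CPM in control and 4.15, 5.63 and 4.04 CPM in the double knockout (2.81 ± 0.28). Tgfb1 stood at 5.19, 4.38 and 4.59 CPM in control and 10.3, 11.7 and 12.4 CPM in double knockout libraries (1.28 ± 0.12). Of 15 checkpoint ligands and co-stimulators, 8 rose, 3 fell and 4 were not called. The lower ones, named after their values were seen, were Raet1e (-4.75 ± 0.62) and H60b (-1.48 ± 0.50), ligands of the natural killer receptor NKG2D, and the adhesion molecule Vcam1 (-2.41 ± 0.71), all with few reads in the double knockout. Lgals9, which encodes galectin-9, stood at 19.7, 19.3 and 18.7 CPM in control and 104.6, 102 and 107 CPM in double knockout libraries (2.44 ± 0.05). Tnfsf9, the ligand of 4-1BB, and Pvr, a ligand of the receptors TIGIT and CD226, rose by 1.16 ± 0.08 and 1.01 ± 0.08. Cd276, a B7-family ligand, stood at 9.33, 7.94 and 8.88 CPM in control and 13.8, 13.6 and 13.2 CPM in double knockout libraries (0.64 ± 0.10). For these 4 ligands the groups did not overlap. Cd274, which encodes PD-L1, was at 3.1, 3.46 and 3.56 CPM in control and 3.19, 2.04 and 3.15 CPM in double knockout libraries with overlapping groups (-0.27 ± 0.17, adjusted p = 0.173). Of 9 complement and acute phase genes, 3 rose, 2 fell and 4 were not called, and 2 were called in a fit of the 2 groups alone. C1ra, a protease of the classical pathway, stood at 6.77, 5.33 and 6.43 CPM in control and 7.86, 9.71 and 9.34 CPM in double knockout libraries (0.54 ± 0.12).

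In the machinery of TNF receptor signalling, most NF-kB genes rose, and fewer of the genes of linear ubiquitin ligation were called. Of 23 NF-kB subunits, inhibitors and feedback genes tested, 17 rose, none fell and 6 were not called, with a median of 0.64. Ier3, an early response gene, stood at 22.8, 16.1 and 20.4 CPM in control and 156, 162 and 138 CPM in the double knockout (2.94 ± 0.12). Map3k14, the kinase NIK of the non-canonical pathway (chromosome 11, 103219762 to 103267472), stood at 3.94, 5.05 and 5.21 CPM in control and 18.3, 17.1 and 16.5 CPM in double knockout libraries (1.87 ± 0.12, adjusted p = 2.22e-13). Nfkbiz, a nuclear inhibitor-like protein that NF-kB induces, rose by 1.52 ± 0.10. Rela, the main transactivating subunit, stood at 40.9, 31.2 and 35.6 CPM in control and 45.1, 48.1 and 40.1 CPM in double knockout libraries, with overlapping groups (0.31 ± 0.08, adjusted p = 0.00292). Of 19 genes of linear ubiquitin ligation and removal, 9 rose, 2 fell and 8 were not called, and without double knockout replicate 1 the called members were 7. Tnfaip3, which encodes the deubiquitinase A20 and is on both lists, rose by 3.21 ± 0.23. The deubiquitinase Cyld stood at 36.4, 32.1 and 35.9 CPM in control and 48.6, 47.9 and 47.00 CPM in double knockout libraries (0.46 ± 0.06, and 0.24 with a correction for transcript length), and its adaptor Spata2 rose by 0.41 ± 0.06. The ligase subunit Rbck1 was at 96.1, 88.4 and 93.8 CPM in control and 100.6, 99.4 and 99.9 CPM in double knockout libraries (0.11 ± 0.05, adjusted p = 0.0487). Rbck1 was called in 10 of 14 alternatives, and without control replicate 2 it stood at 0.07 (adjusted p = 0.215).

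Of 15 TNF receptor family genes, 3 rose, 4 fell and 8 were not called, and 4 were called in a fit of the 2 groups alone. Tnfrsf1a, the main TNF receptor, was at 86.1, 71.9 and 81.6 CPM in control and 82.7, 81.5 and 71.8 CPM in double knockout libraries (-0.02 ± 0.06, adjusted p = 0.804). Ngfr, a receptor that marks neural crest-like melanoma cells, stood at 0.943, 1.24 and 1.53 CPM in control and 7.01, 6.04 and 8.7 CPM in double knockout libraries (2.56 ± 0.19). Tnfrsf11b, a decoy receptor of the bone factor RANKL, was called lower (-0.68 ± 0.22), but not without control replicate 2 (-0.53, adjusted p = 0.0674). Among 18 genes of extrinsic death and necroptosis, 8 rose, 3 fell and 7 were not called. Mlkl, the executor of necroptosis, stood at 51.7, 55.4 and 51.3 CPM in control and 102, 104 and 96.3 CPM in double knockout libraries (0.93 ± 0.06). Cflar, which encodes the caspase-8 inhibitor cFLIP, stood at 86.8, 81.1 and 90.2 CPM in control and 128, 126 and 133 CPM in double knockout libraries (0.58 ± 0.05). Casp6, which encodes another caspase, rose by 1.10 ± 0.08. Groups did not overlap for these 3 genes. Of 18 Bcl2 family genes, 8 rose, 3 fell and 7 were not called. The survival factors Bcl2l1 (0.63 ± 0.05) and Bcl2 (0.58 ± 0.07) and the death-promoting Bcl2l11 (0.72 ± 0.14) rose, and the pore-forming Bax was lower (-0.37 ± 0.05, and -0.18 with a correction for transcript length). Bcl2l1 went from 54.3, 51.5 and 53.3 CPM in control to 83.05, 81.97 and 80.8 CPM and Bax from 254, 261 and 252 CPM in control to 201, 206 and 188 CPM.

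Autophagy genes moved in both directions. Called members were 59.5% of the conjugation and initiation genes and 68.2% of the selective receptors, against 52.4% of all tested genes. Of 37 conjugation and initiation genes tested, 12 rose, 10 fell and 15 were not called, with a median of 0.08. The lipid scramblase Atg9a stood at 32.9, 27.2 and 34.4 CPM in control and 58.5, 59.5 and 55.2 CPM in the double knockout (0.88 ± 0.07), and the lipid transfer protein Atg2b at 41.9, 36.1 and 41.8 CPM in control and 65.1, 71.9 and 69.3 CPM in double knockout libraries (0.79 ± 0.07). Atg12, the ubiquitin-like partner to which Atg5 is joined, was at 36.6, 44.1 and 38.5 CPM in control and 38.95, 35.5 and 39.8 CPM in double knockout libraries with overlapping groups (-0.06 ± 0.08, adjusted p = 0.549). Atg3, the conjugating enzyme, and Atg4a, a processing protease, were lower (-0.27 ± 0.05 and -0.48 ± 0.07), Atg3 by -0.17 with a correction for transcript length. Atg9b, a relative of Atg9a named after its values were seen, had few reads and was lower still (-1.52 ± 0.64, adjusted p = 0.0471). Of 22 selective autophagy receptors, 11 rose, 4 fell and 7 were not called, with a median of 0.24. Bnip3, a mitophagy receptor induced by low oxygen (chromosome 7, 138890836 to 138909519), stood at 114, 107 and 180 CPM in control and 894, 898 and 826 CPM in double knockout libraries (2.71 ± 0.18), and its relative Bnip3l at 99.4, 119 and 124 CPM in control and 302, 282 and 278 CPM in double knockout libraries (1.33 ± 0.09). Nbr1 and Ccpg1, receptors for protein aggregates and for endoplasmic reticulum, rose by 0.66 ± 0.06 and 0.83 ± 0.07. Sqstm1, which encodes the receptor p62, moved least of the called receptors named here, from 1023, 966 and 1029 CPM in control to 1177, 1198 and 1194 CPM (0.24 ± 0.03). Phb2, an inner mitochondrial membrane receptor, was lower (-0.57 ± 0.05).

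Lysosomal genes were lower more often than higher, and 56.1% of them were called, against 52.4% of all tested genes. Of 66 tested, 11 rose, 26 fell and 29 were not called, with a median of -0.05, and a fit of the 2 groups alone called 24 in all. Without control replicate 2, 6 rose and 24 fell. Subunits of the proton pump were among the lower ones, Atp6v1e1 from 465, 509.8 and 472 CPM in control to 369, 357 and 357 CPM (-0.42 ± 0.04), Atp6v1g1 (-0.47 ± 0.06) and Atp6v0b (-0.45 ± 0.08). With a correction for transcript length Atp6v1g1 stood at -0.28 and Atp6v0b at -0.25. Asah1, the acid ceramidase, was lower at 121, 109.9 and 119.6 CPM against 155, 182 and 166 CPM in control (-0.52 ± 0.05). The protease Ctsh, by contrast, stood at 10.6, 13.9 and 12.4 CPM in control and 26.1, 24.8 and 22.7 CPM in the double knockout (0.995 ± 0.09), and Psap, the precursor of the saposins, at 499, 444 and 482 CPM in control and 588, 616 and 571 CPM in double knockout libraries (0.32 ± 0.04).

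Most genes of glucose metabolism and most oxygen-regulated genes were higher. Of 31 genes of glucose uptake and glycolysis tested, 25 rose, 3 fell and 3 were not called, with a median of 0.76. Slc16a3, the lactate exporter, stood at 130, 96.97 and 122 CPM in control and 542, 587 and 508 CPM in the double knockout (2.23 ± 0.13). Hk2, which traps glucose in the cell, stood at 89.4, 59.4 and 80.2 CPM in control and 302, 309.5 and 279 CPM in double knockout libraries (1.96 ± 0.11), and Pfkl, of the committed step, at 181, 116 and 159 CPM in control and 602, 645 and 555 CPM in double knockout libraries (1.98 ± 0.11). Pdk1, a kinase that keeps pyruvate out of mitochondria, rose by 2.01 ± 0.11, and the glycogen synthase Gys1 by 2.22 ± 0.11. The groups did not overlap for any of the 5. Slc2a3, a glucose transporter, was lower at 18.9, 18.5 and 22.01 CPM against 24.9, 25.2 and 26.3 CPM in control (-0.36 ± 0.09). Ldhb was called lower (-0.15 ± 0.05) with overlapping groups, and a correction for transcript length left it at 0.01 (adjusted p = 0.775) and leaving out control replicate 2 at -0.08 (adjusted p = 0.161). Of 34 hypoxia targets and oxygen sensors, 26 rose, 2 fell and 6 were not called, with a median of 1.42. Ero1l, an oxidase of the endoplasmic reticulum (chromosome 14, 45283087 to 45318771), stood at 191, 155 and 208 CPM in control and 1283, 1219 and 1197 CPM in double knockout libraries (2.74 ± 0.13). Ankrd37 stood at 2.8, 3.65 and 3.83 CPM in control and 23.6, 26.8 and 23.6 CPM in double knockout libraries (2.85 ± 0.15), and Ddit4, an inhibitor of mTORC1, at 34.8, 29.4 and 42.98 CPM in control and 203, 219 and 166 CPM in double knockout libraries (2.46 ± 0.14). The transcript of the oxygen-regulated factor Hif1a was at 205, 186 and 202 CPM in control and 195, 188 and 210.3 CPM in double knockout libraries with overlapping groups (0.00 ± 0.07, adjusted p = 0.975). Bhlhe41, a target that represses transcription, was lower (-0.23 ± 0.06). The core of the hypoxia response element, ACGTG on either strand, was found in the window of 18 of 27 hypoxia genes (66.7%) and 18 of 30 glycolysis genes, against 3002 of the 10017 tested genes with a window and 12 of 18 melanosome genes (66.7%). These letters are also part of the CACGTG E-box, so matches to both count.

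Stress-responsive amino acid genes moved in both directions. Of 30 integrated stress response genes tested, 20 rose, 5 fell and 5 were not called, with a median of 0.41. Trib3, a pseudokinase induced by Atf4, stood at 10.6, 8.6 and 11.1 CPM in control and 41.95, 41.9 and 34.2 CPM in the double knockout (1.96 ± 0.11), Vldlr at 0.64, 0.508 and 0.689 CPM in control and 6.12, 6.15 and 4.62 CPM in double knockout libraries (3.20 ± 0.29) and Nupr1 at 0.741, 1.43 and 0.995 CPM in control and 5.16, 4.04 and 3.87 CPM in double knockout libraries (2.03 ± 0.22). Groups were apart for the 3. Atf4 itself, the central factor of the response, was called lower, at 245, 236 and 225 CPM against 259.7, 288 and 271 CPM in control (-0.21 ± 0.05, adjusted p = 0.00158), and a correction for transcript length left it at -0.10 (adjusted p = 0.0503). Slc7a11, the cystine importer (chromosome 3, 49892526 to 50443614), stood at 14.99, 15.8 and 14.7 CPM in control and 6.64, 9.12 and 8.84 CPM in double knockout libraries (-0.89 ± 0.12), and Cth, which makes cysteine from cystathionine, at 16.4, 17.1 and 15.96 CPM in control and 8.68, 7.67 and 9.74 CPM in double knockout libraries (-0.93 ± 0.12). The amino acid response letters TGATGNAA, on either strand, were found in the window of 10 of 26 integrated stress response genes (38.5%) and 5 of 26 aminoacyl-tRNA synthetases (19.2%), against 266 of 10017 tested genes (2.66%). Of 20 serine and one-carbon folate enzymes, 9 rose, 6 fell and 5 were not called. The folate enzyme Mthfd1l rose (0.60 ± 0.05). Pycr1 (1.82 ± 0.16), Gpt2 (0.65 ± 0.09) and Asns (0.51 ± 0.05), list members that belong to other amino acid pathways, rose too. Asns, asparagine synthetase, went from 98.1, 96.7 and 97.1 CPM in control to 137, 133 and 146 CPM. Phgdh, of serine synthesis, was not called (-0.01, adjusted p = 0.862). With a correction for transcript length it stood at 0.10 (adjusted p = 0.0317). Lower were the cytosolic folate enzymes Shmt1 (-0.45 ± 0.07) and Mthfd1 (-0.39 ± 0.06) and the thymidylate synthase Tyms (-0.39 ± 0.05), which went from 149, 171 and 153 CPM in control to 122, 116 and 122 CPM.

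Aminoacyl-tRNA synthetases divided by compartment. Of 36 tested, 12 were higher and 13 were lower. The 17 whose symbol ends in 2, which serve the mitochondrion, had 0 higher and 10 lower, and the other 19 had 12 higher and 3 lower, a split made after the values were seen. Sars stood at 312, 307 and 305 CPM in control and 484, 491 and 474 CPM in the double knockout (0.65 ± 0.04), whereas Yars2 stood at 55.1, 58.6 and 51.7 CPM in control and 41.03, 39.8 and 39.5 CPM in double knockout libraries (-0.46 ± 0.06). Of 29 chaperone and degradation genes of the endoplasmic reticulum, 10 rose, 8 fell and 11 were not called, and without control replicate 2, 5 fell. Ern1, which encodes the stress sensor IRE1, stood at 29.2, 25.3 and 29.2 CPM in control and 52.5, 46.98 and 52.98 CPM in double knockout libraries (0.87 ± 0.09), and the chaperone Hsp90b1 at 1544, 1542 and 1581 CPM in control and 1989, 1982 and 2006 CPM in double knockout libraries (0.36 ± 0.03). Manf, a secreted factor that endoplasmic reticulum stress induces, was lower (-0.38 ± 0.06). Of 36 cholesterol synthesis genes, 12 rose, 11 fell and 13 were not called. Sqle (0.41 ± 0.05) was higher and Msmo1 (-0.48 ± 0.06), Insig1 (-0.42 ± 0.05) and Cyp51 (-0.38 ± 0.04) were lower.

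Of 26 p53 pathway genes tested, 8 rose, 12 fell and 6 were not called, with a median of -0.12. Cdkn1a, the cell cycle inhibitor p21 (chromosome 17, 29090976 to 29100727), stood at 111, 94.6 and 111 CPM in control and 359.7, 380.5 and 332 CPM in double knockout libraries (1.76 ± 0.07). Plk2 and Btg2 rose by 1.62 ± 0.10 and 1.18 ± 0.17. Ccng1, another direct target, stood at 189, 232 and 214 CPM in control and 109, 101.3 and 121 CPM in double knockout libraries (-0.94 ± 0.08), and Trp53inp1 at 34.2, 36.1 and 35.1 CPM in control and 22.4, 17.7 and 23.9 CPM in double knockout libraries (-0.72 ± 0.09). Aen (-0.50 ± 0.05) and Sesn1 (-0.49 ± 0.09) were lower. Groups did not overlap for the 3 targets with levels given. Of 31 NRF2 target and ferritin genes, 7 rose, 14 fell and 10 were not called. Gsta4, a glutathione transferase for lipid peroxidation products (chromosome 9, 78182774 to 78209349), stood at 12.3, 13.7 and 11.3 CPM in control and 1.15, 0.898 and 0.823 CPM in double knockout libraries (-3.70 ± 0.17, adjusted p = 1.99e-16). Nqo1, a quinone reductase, stood at 5.96, 8.09 and 6.66 CPM in control and 2.11, 2.28 and 2.69 CPM in double knockout libraries (-1.55 ± 0.14). The ferritin heavy chain Fth1 stood at 2091, 2265 and 2043 CPM in control and 1474, 1454 and 1486 CPM in double knockout libraries (-0.54 ± 0.04). Hmox1, which degrades haem, rose by 0.64 ± 0.07, and Srxn1 by 0.43 ± 0.05. Nfe2l2, which encodes NRF2, was at 78.2, 70.8 and 78.04 CPM in control and 74.9, 73.7 and 79.2 CPM in double knockout libraries with overlapping groups (0.01 ± 0.06, adjusted p = 0.946).

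Pigment cell markers were abundant in both lines, and melanosome genes were more often lower than higher in the double knockout. All 8 melanoma and melanocyte markers were tested, and their summed level was 27470 to 27620 CPM in control and 25650 to 26220 CPM in double knockout libraries. Mitf, the master regulator, was at 401, 443 and 438 CPM in control and 412, 402 and 439 CPM in double knockout libraries (-0.03 ± 0.05, adjusted p = 0.63). Tyr, the first enzyme of melanin synthesis, was lower at 541, 487 and 531 CPM against 683, 834 and 754 CPM in control (-0.54 ± 0.06), and the melanocortin receptor Mc1r was higher at 253, 255 and 253 CPM against 169, 147 and 165 CPM in control (0.66 ± 0.04). Of 10 genes of Mitf and melanin synthesis, 5 rose, 3 fell and 2 were not called, and 5 were called in a fit of the 2 groups alone. Of 24 melanosome genes, 4 rose, 15 fell and 5 were not called, with a median of -0.31. Rab32, which delivers cargo to melanosomes, stood at 89.1, 104 and 88.5 CPM in control and 58.3, 51.1 and 54.5 CPM in double knockout libraries (-0.78 ± 0.06), Gpr143 at 53.5, 52.95 and 49.1 CPM in control and 33.9, 31.4 and 35.1 CPM in double knockout libraries (-0.63 ± 0.08) and Tspan10 at 235, 215 and 229.6 CPM in control and 146, 151 and 148 CPM in double knockout libraries (-0.61 ± 0.05). Mlph, the adaptor that ties melanosomes to myosin, rose (0.31 ± 0.05), as did Ppargc1a (0.48 ± 0.07). The E-box CATGTG, which Mitf binds, was found in the window of 7 of 18 melanosome genes (38.9%) and of 1020 of the 10017 tested genes with a window (10.2%).

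Among 35 dedifferentiation, mesenchymal and matrix genes tested, 22 rose, 7 fell and 6 were not called, with a median of 0.42. Loxl2, which crosslinks collagen, stood at 16.5, 12.4 and 20.2 CPM in control and 95.4, 96.99 and 86.05 CPM in double knockout libraries (2.51 ± 0.16), and the neural stem cell filament Nes at 57.9, 50.6 and 59.2 CPM in control and 132, 150.1 and 145 CPM in double knockout libraries (1.35 ± 0.06). Inhibitors of metalloproteinases were lower. Timp1 stood at 6.74, 7.55 and 6.85 CPM in control and 3.26, 3.11 and 2.94 CPM in double knockout libraries (-1.18 ± 0.12), Timp3 at 13.9, 12.5 and 13.2 CPM in control and 7.6, 7.53 and 7.73 CPM in double knockout libraries (-0.79 ± 0.09) and Timp2 at 238, 244 and 231 CPM in control and 185, 194 and 189 CPM in double knockout libraries (-0.33 ± 0.04). No double knockout library reached the lowest control library for the 3. Of 10 fibroblast markers, 5 were tested, with 2 higher and 2 lower, and their summed level was 18.8 to 21.8 CPM in control and 26.04 to 29.4 CPM in the double knockout. Postn was the higher (1.26 ± 0.11) and Col1a2 the lower extreme (-2.52 ± 0.48). Of 7 endothelial markers, Vwf was tested, at 0.842, 0.603 and 0.536 CPM in control and 1.97, 2.07 and 1.57 CPM in double knockout libraries (1.49 ± 0.33), and Pecam1 had 8 and 4 counts. No keratinocyte marker of 8 was tested. The part of other cell types in these changes was not tested.

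Immediate early genes were mostly higher, 15 of 22 tested with 1 lower and a median of 0.85. Fosl2 stood at 15.03, 12.03 and 13.8 CPM in control and 103, 97.4 and 90.7 CPM in the double knockout (2.83 ± 0.10), Fos at 2.53, 2.6 and 2.64 CPM in control and 10.7, 12.1 and 9.56 CPM in double knockout libraries (2.05 ± 0.13) and Junb at 18.2, 17.3 and 16.3 CPM in control and 44.99, 43.3 and 44.4 CPM in double knockout libraries (1.36 ± 0.09). Ier5 was the lower one (-0.50 ± 0.09). Of 18 ERK feedback genes, 6 rose, 2 fell and 10 were not called. Spred3 (1.67 ± 0.14) and Spry2 (0.77 ± 0.07) rose, and the phosphatases Dusp6 (-0.34 ± 0.06) and Dusp4 (-0.23 ± 0.05) were lower. Of 23 genes of BMP and TGF-beta signalling, 12 rose, 4 fell and 7 were not called. Smad6, an inhibitor of BMP signalling, stood at 9.6, 7.01 and 8.57 CPM in control and 21.8, 24.5 and 29.9 CPM in double knockout libraries (1.598 ± 0.19), and Id1, a direct BMP target, at 14.8, 15.7 and 12.5 CPM in control and 32.6, 30.6 and 34.7 CPM in double knockout libraries (1.18 ± 0.12). The inhibitors Skil (0.83 ± 0.15) and Smad7 (0.76 ± 0.16) were also higher, and the signal carriers Smad2 (-0.42 ± 0.06) and Smad5 (-0.30 ± 0.05) were lower.

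Cell cycle genes were lower more often than higher. Of 45 replication and mitosis genes tested, 9 rose, 24 fell and 12 were not called, with a median of -0.15. Myc stood at 79.6, 70.5 and 77.1 CPM in control and 49.6, 50.2 and 50.3 CPM in the double knockout (-0.60 ± 0.06), and Cdk4, the kinase of the G1 phase, at 534, 622 and 555 CPM in control and 386, 369 and 376 CPM in double knockout libraries (-0.60 ± 0.05). Cdc20 (-0.46 ± 0.05) and the replication factor Gins2 (-0.53 ± 0.07) were lower. Mki67, the proliferation antigen, was higher, at 215, 240.4 and 250 CPM against 165, 142 and 148 CPM in control (0.63 ± 0.06), as were the kinetochore gene Cenpf (0.62 ± 0.05) and the cyclin Ccnd1, at 252, 261 and 266 CPM against 217, 183 and 213 CPM in control (0.35 ± 0.05). With a correction for transcript length Mki67 stood at 0.36 and Cenpf at 0.33. Groups were apart for these genes.

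Fold changes followed transcript length, and several lists of genes with short transcripts were mostly lower. Genes in the fifth with the shortest transcripts had a median of -0.20, with 10.9% higher and 36.3% lower, and those in the fifth with the longest had a median of 0.17, with 45.5% higher and 14.01% lower. Of 80 cytosolic ribosomal protein genes, 79 were lower and the median was -0.42, for example Rps14 at 1362, 1763 and 1388 CPM in control and 924, 868 and 801 CPM in double knockout libraries (-0.80 ± 0.07). With a correction for length 63 were lower and 1 was higher (median -0.21), and without control replicate 2, 72 were lower (median -0.30). In the TNFα libraries 23 were lower and 1 was higher, where 23.1% and 22.6% of all genes were called. Against the same control libraries with vehicle, 73 were lower and 0 were higher in the Atg5 knockout (4154 of all 13527 genes lower). In the Rnf31 knockout 71 were lower and 1 was higher (21.5% of all genes lower). The double knockout was lower for 8 and higher for 1 against the Atg5 knockout (19.8% of all genes lower). Against the Rnf31 knockout it was lower for 17 and higher for 2 (3462 of all 13527 genes lower). Of 73 nuclear respiratory chain subunits, 3 were higher and 46 were lower, which became 17 and 26 with the length correction. In the TNFα libraries 15 of them were higher and 9 were lower, with a median of 0.04. Against control with vehicle, 37 of them were lower in the Atg5 knockout and 62 in the Rnf31 knockout, with 4 and 1 higher. Ndufa4 stood at 524, 728 and 541 CPM in control and 389, 366 and 344 CPM in double knockout libraries (-0.71 ± 0.08), and Sdha was higher (0.29 ± 0.06). Of 31 constitutive proteasome genes, 1 was higher and 24 were lower, and 4 and 16 with the correction, while in the TNFα libraries 3 were higher and 9 were lower. Against control with vehicle, 29 of the 31 were lower and 1 was higher in the Atg5 knockout, and 24 and 1 in the Rnf31 knockout. In the double knockout Psma3 was lower (-0.52 ± 0.07). Psmd8 was the higher one there, at 720.2, 719 and 672 CPM against 496, 566 and 506 CPM in control (0.43 ± 0.05). Of 13 transcripts of the mitochondrial genome 7 were lower, and 4 either without control replicate 2 or with the length correction. For mt-Nd3 levels were 80.5, 108 and 81.2 CPM in control and 31.4, 22.7 and 21.7 CPM in double knockout libraries (-1.84 ± 0.21). The cause of the length trend was not tested.

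Large falls occurred in single genes of unlike function. Btn2a2, a butyrophilin that restrains T cells (chromosome 13, 23477676 to 23488857), had 1158 counts over the control group and 1 over the double knockout group, a ratio of 1112 (95% counting interval 199 to 43960). Nostrin, which traffics endothelial nitric oxide synthase, had 211 and 0 counts and was at least 67.5-fold lower. Sytl4, a vesicle docking protein, had 300 and 2 counts, a ratio of 144 (39.5 to 1195). Sigirr, an inhibitory receptor of the interleukin-1 family (chromosome 7, 141091175 to 141100572), stood at 3.57, 5.01 and 4.25 CPM in control and 0.148, 0.311 and 0.0716 CPM in the double knockout, a ratio of 24.01 (14.4 to 43.3). Fscn1, the actin-bundling protein fascin (chromosome 5, 142960343 to 142973185), stood at 2.8, 1.78 and 2.3 CPM in control and 0.0742, 0.173 and 0.143 CPM in double knockout libraries (-4.08 ± 0.33). Fstl3, a secreted binder of activin, stood at 4.14, 3.21 and 3.21 CPM in control and 0.408, 0.449 and 0.322 CPM in double knockout libraries (-3.15 ± 0.27), and Ccdc80, a matrix protein, at 5.29, 5.97 and 4.98 CPM in control and 0.371, 0.345 and 0.501 CPM in double knockout libraries (-3.73 ± 0.23). Hpgds, which makes prostaglandin D, stood at 13.2, 13.97 and 12.5 CPM in control and 1.93, 2.11 and 1.93 CPM in double knockout libraries (-2.73 ± 0.14), and the smooth muscle gene Tagln at 4.31, 6.63 and 5.21 CPM in control and 0.853, 0.725 and 0.859 CPM in double knockout libraries (-2.73 ± 0.18). The rule for the largest falls, under which each of these genes was named, required groups that were apart, so their separation is no further result. Setbp1 stood out among the increases as a gene outside the interferon groups, with 1 count over the control group and 973 over the double knockout group, a ratio of 1013 (181 to 40060).

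A further comparison asked which changes differed from those of Atg5 loss alone. Double and Atg5 single knockout cells with vehicle differed in 5150 of 13527 genes (38.1%), 2466 higher (18.2%) and 2684 lower (19.8%) in the double knockout, of which 134 and 566 by more than 2-fold. In the Atg5 knockout against control, 4239 of 13527 genes were called higher and 4154 lower. Antiviral effectors were higher there for 47 of 49 members and lower for 1 (median 2.725), and interferon-inducible GTPases were higher for 11 of 11. Glycolysis genes were higher there for 27 of 31 and lower for 3, hypoxia genes for 28 of 34 and 4, and MHC class I genes for 13 of 19 and 2. In the double against the Atg5 knockout, antiviral effectors were higher for 26 of 49 members and lower for 4. NF-kB genes were higher for 4 and lower for 14 of 23. Irf7 stood at 8.63, 8.04 and 9.07 CPM in the Atg5 knockout against 20.9, 15.2 and 18.1 CPM in the double knockout (1.07 ± 0.16, adjusted p = 5.42e-06), and Isg15 at 59.8, 52.5 and 54.8 CPM in the Atg5 knockout against 135, 120.4 and 125 CPM in the double knockout (1.19 ± 0.09). Cxcl1, a neutrophil chemokine, went the other way, at 134, 139 and 127 CPM in the Atg5 knockout and 2.45, 1.97 and 1.65 CPM in the double knockout (-6.04 ± 0.11, adjusted p = 2.21e-25). Cxcl1 was still higher in the double knockout than in control, with 169 against 4 counts over the groups. Glycolysis genes were lower in the double knockout for 20 of 31 members and hypoxia genes for 20 of 34, with Hk2 at 389.5, 399 and 425 CPM in the Atg5 knockout against 302, 309.5 and 279 CPM in the double knockout (-0.45 ± 0.11). Dedifferentiation and matrix genes were lower for 26 of 35 members and TNF receptor family genes for 9 of 15. Cell cycle genes were higher for 28 of 45 and melanosome genes for 15 of 24. Some genes stood above control in the Atg5 knockout and below it in the double knockout, and are named here after their values were seen. Fscn1 was at 19.8, 19.3 and 22.6 CPM in the Atg5 knockout against 0.0742, 0.173 and 0.143 CPM in the double knockout (-7.24 ± 0.26, adjusted p = 5.00e-18). Gsta4 was at 28.02, 24.5 and 29.4 CPM in the Atg5 knockout against 1.15, 0.898 and 0.823 CPM in the double knockout (-4.83 ± 0.16), Timp3 at 47.3, 53.7 and 49.9 CPM in the Atg5 knockout against 7.6, 7.53 and 7.73 CPM in the double knockout (-2.72 ± 0.08) and Slc7a11 at 21.2, 23.5 and 24.02 CPM in the Atg5 knockout against 6.64, 9.12 and 8.84 CPM in the double knockout (-1.48 ± 0.12). Outside that pattern, Cd274 was at 5.63, 5.66 and 6.38 CPM in the Atg5 knockout (-1.08 ± 0.16, adjusted p = 4.38e-06 for double against single). Its difference between double knockout and control was not called (-0.27, adjusted p = 0.173). Id2, a BMP target, was at 53.6, 60.8 and 64.4 CPM in the Atg5 knockout against 278, 255 and 300.3 CPM in the double knockout (2.22 ± 0.10).

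**Figure D3:**
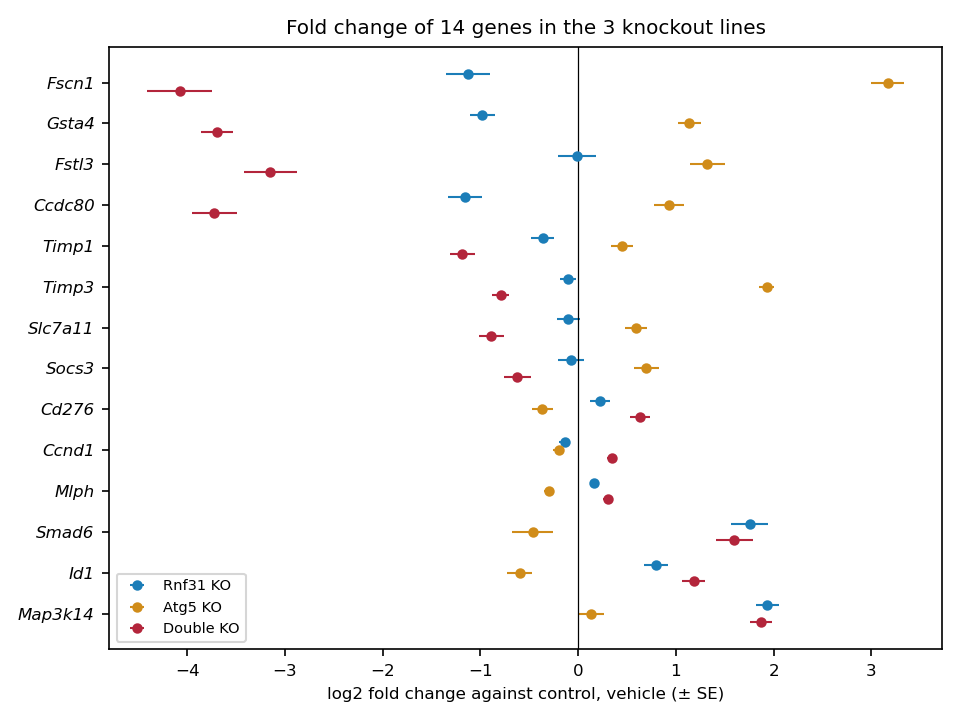
Log2 fold change ± SE against control, with vehicle, of 14 genes in the Rnf31, Atg5 and double knockout lines, chosen after their values were seen. The 3 estimates of a gene share the control libraries. Fscn1 was at 3.17 in the Atg5 knockout and -4.08 in the double knockout, and Map3k14 at 1.93 in the Rnf31 knockout and 1.87 in the double knockout.

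Against Rnf31 loss alone, the double knockout differed in 6502 of 13527 genes (48.1%). Some genes that changed in the Rnf31 and double knockouts and not, or oppositely, in the Atg5 knockout are described here. How many genes had this pattern was not counted. Map3k14 was at 17.6, 19.99 and 16.7 CPM in the Rnf31 knockout and 5.47, 5.2 and 4.86 CPM in the Atg5 knockout, and double and Rnf31 knockouts did not differ at the threshold (-0.06 ± 0.10, adjusted p = 0.655). Smad6 was at 30.8, 23.7 and 30.3 CPM in the Rnf31 knockout and 6.97, 5.46 and 5.69 CPM in the Atg5 knockout, with -0.16 ± 0.17 (adjusted p = 0.484) for double against Rnf31 knockout. Nqo1 was at 3.19, 3.87 and 3.33 CPM in the Rnf31 knockout, 7.53, 7.37 and 7.47 CPM in the Atg5 knockout and 2.11, 2.28 and 2.69 CPM in the double knockout, which lay below the Rnf31 knockout (-0.55 ± 0.15, adjusted p = 0.00325). Setbp1 was at 2.3, 2.12 and 3.82 CPM in the Rnf31 knockout and had 0 counts in the Atg5 knockout, and the double knockout was higher than the Rnf31 knockout (2.06 ± 0.21). Of the 49 antiviral effectors, 6 were higher and 11 were lower in the Rnf31 knockout than in control (all genes, 24.1% and 21.5%), and Isg15 was at 2.62, 3.07 and 3.11 CPM against 5.22, 7.14 and 5.74 CPM in control.

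**Figure D4:**
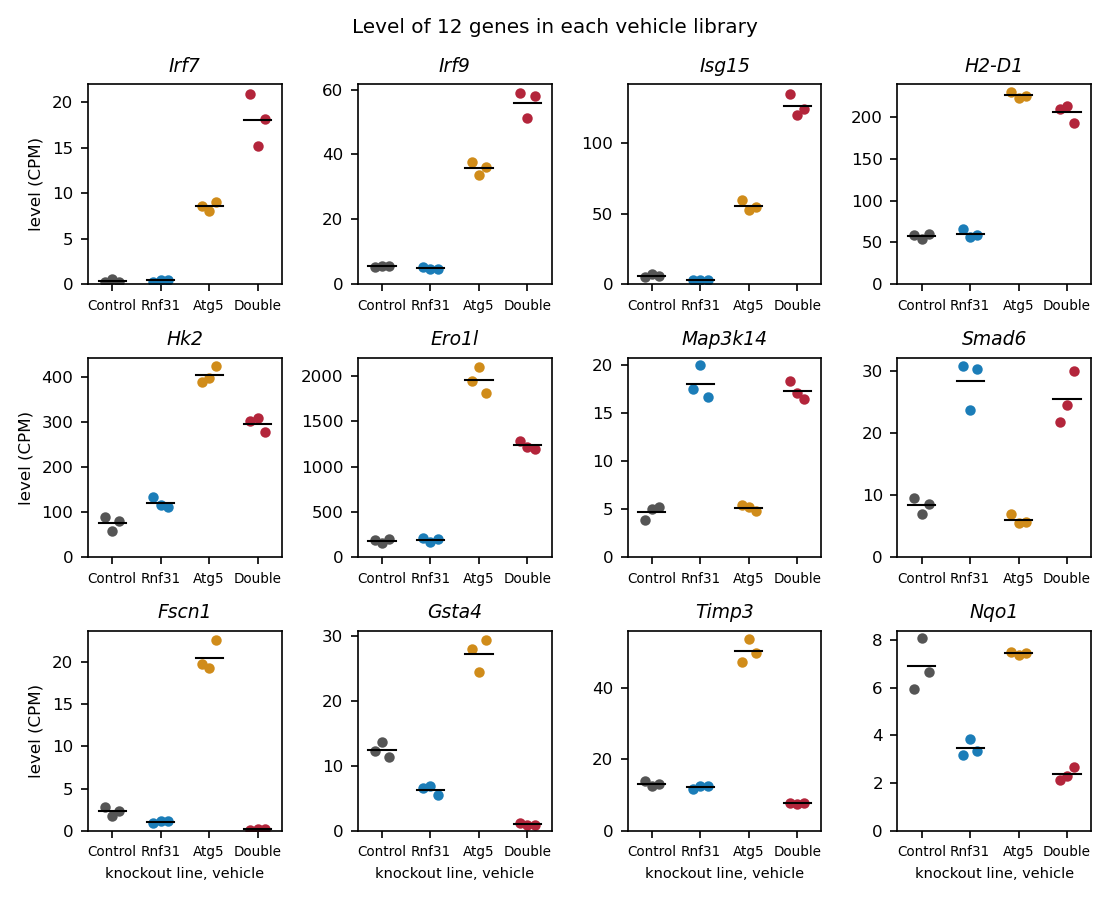
Points are single vehicle libraries and lines are means of 3, in CPM, for 12 genes in control, Rnf31 knockout, Atg5 knockout and double knockout cells, each axis starting at 0. Irf7 and Isg15 are highest in the double knockout, Hk2 and Ero1l in the Atg5 knockout, Map3k14 and Smad6 are high in both lines that lack Rnf31, and Fscn1, Gsta4 and Timp3 are high in the Atg5 knockout and lowest in the double knockout.

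The same 2 lines were also compared in 6 other libraries, those treated with TNFα. There 6179 of 13527 genes were called (45.7%). Of the 3417 genes higher with vehicle, 2356 (68.9%) were called higher with TNFα and 17 were called lower, and of the 657 more than 2-fold higher, 561 (85.4%) were called higher. Of the 3676 genes lower with vehicle, 2374 (64.6%) were called lower with TNFα and 6 were called higher, and of the 302 more than 2-fold lower, 224 (74.2%). Irf7 changed by 5.49 ± 0.26 with TNFα, against 5.70 ± 0.25 with vehicle, Hk2 by 1.86 ± 0.11 against 1.96 ± 0.11, Map3k14 by 1.94 ± 0.12 against 1.87 ± 0.12 and Gsta4 by -3.78 ± 0.18 against -3.70 ± 0.17. A test of the difference between the treatments called 156 genes (1.15%), 52 with a higher and 104 with a lower fold change with TNFα, while 2811 had an unadjusted p under 0.05. With a correction for transcript length the counts were 2 and 0. Leaving out 1 library at a time gave 0 (without control TNFα replicate 1) to 969 (without control vehicle replicate 1) of the first kind and 13 (without double knockout TNFα replicate 1) to 804 (without control vehicle replicate 1) of the second.

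**Figure D5:**
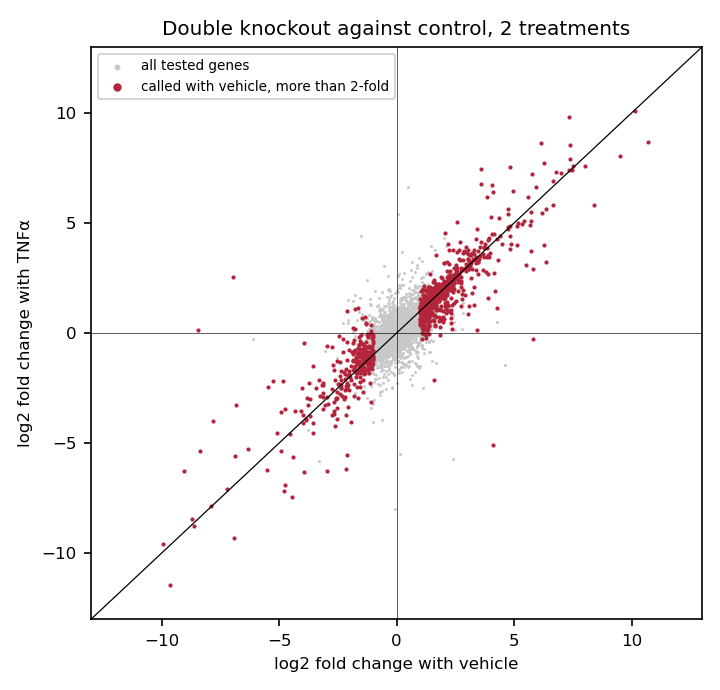
Each point is a tested gene, placed by its log2 fold change of double knockout against control with vehicle and with TNFα, which come from different libraries, with genes called and changed more than 2-fold with vehicle in red and a line of equal values. Of 657 red genes on the right 561 were called higher with TNFα as well.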

How the data were processed

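RNA-seq libraries of B16F10 cells were aligned, quantified and tested by the authors with STAR, RSEM and DESeq2 against GRCm38 and mm10, as tools and builds are named in the submitters' processing notes without versions or order. The deposited table holds estimated counts per gene symbol, which are whole numbers and were not normalized, so rounding changed 0 values. Whether counting used strand is not given in the sources used here. One row with a blank name (a mean of 0.14% of counts) was left out, and 15738 named genes remained. In 23 rows every value equals that of another row, so genes that share reads are uncertain.

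All 24 libraries (8 groups of 3) were fitted together with edgeR 4.0.16 in R 4.3.3 with TMM scaling, the filterByExpr filter, a mean per group and the quasi-likelihood test with Benjamini-Hochberg adjustment over 13527 genes. The filter removed 2211 genes. The other genotypes enter the fit to share the estimate of the spread, a common biological coefficient of variation of 6.17%. Library totals are given with the results. Where a group had 30 or fewer summed counts, ratios of summed counts with exact 95% intervals may be given, and a group at 0 is set to a floor of 3 counts over the group. Both cover counting error only. Fitted fold changes of such genes depend on the prior count.

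Named genes are Rnf31 and Atg5, the 15 largest called increases and 15 largest called falls reaching 2 CPM in one of the groups, with groups apart, the first members of each gene list, and up to 5 called members in each direction per list. The text describes a part of them. The members, lists and this rule were chosen with earlier results of these data known, and a list's count is a description. Alternatives were DESeq2 1.42.0, its size factors in edgeR, no filter, a minimum mean of 1 CPM, only the groups compared, a replicate block, an offset for transcript length with and without that block, and leaving out each library. Transcript lengths and gene coordinates come from GENCODE release 21 for mouse on GRCm38, which matched 15521 symbols, and 98.7% of tested genes had a length. Promoter windows come from RefSeq on GRCm38.p6. The fit was tested on simulated data before use. Some list members are not reported here.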

Additional observations from a re-analysis of the deposited data

Results flagged for a closer look

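The effect of the double knockout differed between TNFα and vehicle for 7 of the named genes, by edgeR's quasi-likelihood test of the difference itself with Benjamini-Hochberg adjustment over all tested genes. None of the 7 was called with a correction for transcript length, where adjusted p ran from 0.0761 to 0.253, and the cause was not tested. Ccdc80, the matrix protein that fell, was less reduced with TNFα, with a difference of 1.44 (adjusted p = 0.0405), called in 8 of 19 alternatives. Tagln, the smooth muscle gene, was also less reduced, by 1.25 (adjusted p = 0.0267), called in 9 of 19. A further 3 proteasome genes had higher fold changes with TNFα. They were Pomp, an assembly factor, by 0.35 (adjusted p = 0.0441, 9 of 20 alternatives), Psma2 by 0.29 (adjusted p = 0.0469, 8 of 20) and Psmd8 by 0.28 (adjusted p = 0.0489, 7 of 20). Mki67 and Cenpf, of proliferating cells, were less increased with TNFα. Their differences were -0.48 (adjusted p = 0.00463) and -0.40 (adjusted p = 0.00988), each called in 17 of 20 alternatives.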

How the results depend on the processing

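Of 49 counts of called genes or list members, 40 stayed within 1.5 times of the reported count in every alternative. A list's count takes higher and lower calls together, so a change of direction within a list does not show in it. Respiratory chain subunits, for example, went from 3 higher and 46 lower to 17 and 26 with the length offset. The test of the difference between treatments did not. Its 52 genes with a higher fold change with TNFα became 19 without a filter, 466 with DESeq2, 260 with a replicate block, 2 with a length offset, 18 with both, 0 with only the groups compared, and 0 to 969 leaving out 1 library at a time. Its 104 genes with a lower fold change became 349 with DESeq2, 273 with the block, 0 with the length offset, 8 with both, 5 with only the groups compared and 13 to 804 leaving out 1 library. With only the groups compared, called members were 2 of complement and acute phase (5 reported), 4 of the TNF receptor family (7), 24 of the lysosome (37) and 5 of Mitf and melanin synthesis (8). A filter at a mean of 1 CPM left 2 complement genes. DESeq2 called 1 class II gene where edgeR called 0. Leaving out 1 library gave 0 to 1 class II gene, 2 (without double knockout vehicle replicate 3) to 5 complement genes, 7 to 11 genes of linear ubiquitin ligation and 4 to 7 mitochondrially encoded transcripts. Ldhb, Ndufa2 and Phgdh changed sign with the length offset, to 0.0143, 0.0971 and 0.1036, and with the block added stood at 0.0143, 0.0982 and 0.1036. The causes were not tested.

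Same-numbered vehicle libraries of the double knockout and the control did not deviate together (correlations of -0.0575, -0.083 and -0.0192). With 3 libraries a group, these values cannot settle whether the replicate numbers pair the samples. Whether the numbers pair the vehicle and TNFα libraries of a line, on which the block counts of the test between treatments rest, was not checked. Of 345 named genes, 327 were called and 48 changed verdict in some alternative. Of 4817 values, 4625 kept direction and verdict, 170 lost the call, 16 gained one and 6 reversed. Genes with under 30 counts in a group are limited by depth, and 3 libraries a group limit the rest.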

Other observations

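Genes on chromosome 6 were lower as a set along its whole length in the double knockout line, a pattern noticed after the values were seen. Over 482 genes with a mean of at least 5 CPM, the median log2 fold change was -0.19, with 20.8% called higher and 52.9% called lower. All 12 consecutive windows of 40 such genes had a median below 0, from -0.30 to -0.10, against 126 of 223 windows on the other chromosomes. The 3 double knockout libraries had medians of -0.19, -0.19 and -0.15 against the control mean, and the 3 Atg5 knockout libraries had -0.05, 0.00 and -0.01. Over all 700 tested genes of the chromosome the median was -0.18, -0.14 with a length offset, -0.16 without control vehicle replicate 2 (699 genes) and -0.15 in the TNFα libraries. List counts and values of named genes given above were not corrected for this shift. Chromosome 3 was not uniform. Its first window, chr3:5560188-31052959, had a median of -0.26 with 26 of 40 genes lower. Consecutive windows from chr3:87747890 to 127832164 had medians of 0.16, 0.21, 0.36, 0.22, 0.21 and 0.12. The highest of these, chr3:94497544-96561883, had 27 of 40 genes higher. On chromosome 8, with a median of -0.03 in all, consecutive windows from chr8:64739675 to 86885258 were at -0.21, -0.15, -0.17 and -0.13. In those windows 24, 19, 20 and 19 of 40 genes were lower. The cause was not tested.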
